A study of Mus musculus with 65 samples.

Results

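The genes described here are a fixed list of 9 genes, grouped as targets that corticosteroid hormones switch on: Sgk1, Tsc22d3, Fkbp5, Per1, Zbtb16, Klf9, Errfi1, Nedd4l and Ddit4. They were chosen by name, and 8 of the 9 were measured among the 11875 genes used, with Ddit4 having no line and so not analysed here. Their levels were read in 65 single neurons picked by hand for the red protein tdTomato out of the NTS (nucleus of the solitary tract), the part of the brainstem where signals from the viscera arrive. The donors were male Hsd11b2-Cre::Ai9(lox)tdTomato mice of mixed strain, so both groups carry the same 2 alleles, and tdTomato marks any cell in which Cre, driven by Hsd11b2, has acted at any time. In the diet label 33 neurons are standard chow and 32 are low sodium, and neither age nor the days on diet are given in the sources used here. No animal is named, so each diet was treated as 1 sample, cells were not treated as replicates of a diet, and no test, p-value or standard error is given.

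Aldosterone, which the adrenal gland secretes during sodium shortage, binds the mineralocorticoid receptor, the product of Nr3c2. Glucocorticoids bind the same receptor and also the glucocorticoid receptor, the product of Nr3c1, and the enzyme made by Hsd11b2 inactivates glucocorticoids, which leaves the mineralocorticoid receptor open to aldosterone. Both receptors are transcription factors that recognise the same DNA word, a pair of inverted 6-base sites around a 3-base spacer. Most of the genes listed here are known targets of that route in kidney, immune, liver or brain cells. For Nedd4l, the link to that route described here is that SGK1 phosphorylates its protein in the kidney. In the kidney, Sgk1 and Nedd4l act in turn on sodium channels, while Fkbp5 and Tsc22d3 feed back on hormone action.

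Promoter sequences were searched for the shared word that the 2 receptors read. Of the sequences shown, only that of Sgk1 holds the whole word. RefSeq promoter windows on GRCm38.p6, taken as the 250 bases before a transcription start, matched 6 of the 8 measured genes with 15 windows. Zbtb16 and Nedd4l were not matched. Both strands were searched for 4 words: the whole response element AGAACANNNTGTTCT, its single 6-base site (AGAACA or TGTTCT), the cyclic AMP response element TGACGTCA, and the E-box CACGTG that clock factors bind. The single site forms part of the response element, so those 2 searches overlap. Matches are in capitals below, 5′ to 3′ on the gene's own strand, and a match describes letters, not binding.
Sgk1: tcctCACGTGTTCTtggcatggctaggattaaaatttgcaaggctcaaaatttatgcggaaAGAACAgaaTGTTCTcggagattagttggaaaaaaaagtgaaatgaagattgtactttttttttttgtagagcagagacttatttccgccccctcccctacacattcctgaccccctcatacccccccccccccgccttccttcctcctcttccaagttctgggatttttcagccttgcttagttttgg
Per1: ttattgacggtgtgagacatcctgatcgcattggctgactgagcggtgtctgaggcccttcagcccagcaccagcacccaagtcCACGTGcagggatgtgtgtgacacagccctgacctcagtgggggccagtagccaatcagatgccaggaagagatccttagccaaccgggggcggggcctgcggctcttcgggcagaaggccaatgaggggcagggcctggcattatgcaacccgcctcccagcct
Fkbp5: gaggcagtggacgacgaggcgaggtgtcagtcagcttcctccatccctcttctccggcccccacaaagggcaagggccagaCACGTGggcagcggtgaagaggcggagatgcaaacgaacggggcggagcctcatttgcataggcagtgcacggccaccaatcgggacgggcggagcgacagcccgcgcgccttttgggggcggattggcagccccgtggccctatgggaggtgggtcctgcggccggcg

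The whole response element was present in 1 of the 15 windows, the Sgk1 window shown (chr10:21993640-21993889, plus strand), where it begins 189 bases before the start. Among all 32851 promoter windows of the same length, 3 held it (0.00913%). That window has no exonic base and lies inside the body of longer Sgk1 transcripts. Its first match in capitals is an E-box run into a single site, written CACGTGTTCT. The E-box was also found in the Per1 window shown (chr11:69098699-69098947, plus strand), 166 bases before the start, and in the Fkbp5 window shown (chr17:28486150-28486399, minus strand), 169 bases before it. All windows held the E-box in 6.02% of cases, against 3 of the 15.

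Single sites were present in 4 of the 15 windows, 3 of Sgk1 and 1 of Tsc22d3, against 16.1% of all windows. Sgk1 had more of the 15 windows than any other gene, and its 3 include the window with the whole element. The cyclic AMP word was present in 1 window, of Errfi1, against 1.55% of all windows. These shorter matches are shown with the bases around them: the Tsc22d3 stretch is chrX:140600690-140600719 on the minus strand and the Errfi1 stretch is chr4:150855008-150855037 on the plus strand.
Tsc22d3: ccgcattcgacaTGTTCTaagttctgagac
Errfi1: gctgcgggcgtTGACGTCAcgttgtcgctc

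The Errfi1 window also overlaps 124 exonic bases of the gene 1700045H11Rik, and it holds its word 51 bases before the start. The window of Klf9, a gene of the Krüppel-like zinc finger family, held none of the 4 words.

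Depth, purity and scale bear on all values that follow. Each neuron had between 50078 and 5319462 reads in genes of the table, with medians of 602351 in chow and 694430 in low sodium, and 1 read was worth 0.16 to 16.1 CPM (reads scaled to a total of 1000000). Levels are log2(CPM + 1), as deposited. In 9 low-sodium neurons the CPM of the listed genes summed to between 1393471 and 2170050, above the 1000000 that CPM stands for, and these are called high-sum neurons, while the other 23 low-sodium and all 33 chow neurons had sums of at most 1147326. Hsd11b2, which defines the cells, was above 0 in all 65 neurons (mean 8.69 ± 1.01 in chow and 9.04 ± 1.25 in low sodium). Every neuron had at least 3 of the 6 measured neuronal markers above 10 CPM. By the same measure, 19 chow and 18 low-sodium neurons also held markers of a non-neuronal type: astrocytes in 16 and 13, oligodendrocytes in 11 and 13, ependymal cells in 2 and 2, and pericytes in 0 and 1. The summed level of the 9 astrocyte markers ran from 131 to 8051 CPM in chow and from 141 to 2126 CPM in low sodium, and that of 6 oligodendrocyte markers from 0 to 7616 and from 17.1 to 14998 CPM. None of 8 microglial markers has a line in the table. Spearman values between each of the 8 genes and the summed astrocyte or oligodendrocyte markers ran from -0.23 to 0.25, and the part of these markers in the results was not tested beyond the values without such cells given beside them.

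Most of the 8 genes were present in most neurons, and only Sgk1 and Errfi1 were missing from a large share. Between 3 and 8 of the genes were above 0 in a neuron, with a median of 7, and all 8 were above 0 in 14 neurons (9 chow, 5 low sodium). At least 6 were above 0 in 31 of 33 chow and 23 of 32 low-sodium neurons. Per kilobase of exon (exons of the GENCODE M21 basic set, GRCm38), the mean level in log2(CPM per kb + 1) was highest for Tsc22d3 at 4.98 ± 1.73 (SD over 65 cells). Klf9 followed at 3.92 ± 1.34, Fkbp5 at 3.74 ± 1.6 and Per1 at 3.33 ± 2.09. Nedd4l stood at 3.17 ± 1.44, Zbtb16 at 2.56 ± 1.82, Errfi1 at 1.98 ± 2.15 and Sgk1 at 1.53 ± 2.11. On the same scale the receptor genes stood at 3.61 ± 1.59 (Nr3c2) and 1.56 ± 1.51 (Nr3c1). No neighbours in this order differed by more than the spread between cells: the widest gap, between Tsc22d3 and Klf9, was 1.06.

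**Figure D1:**
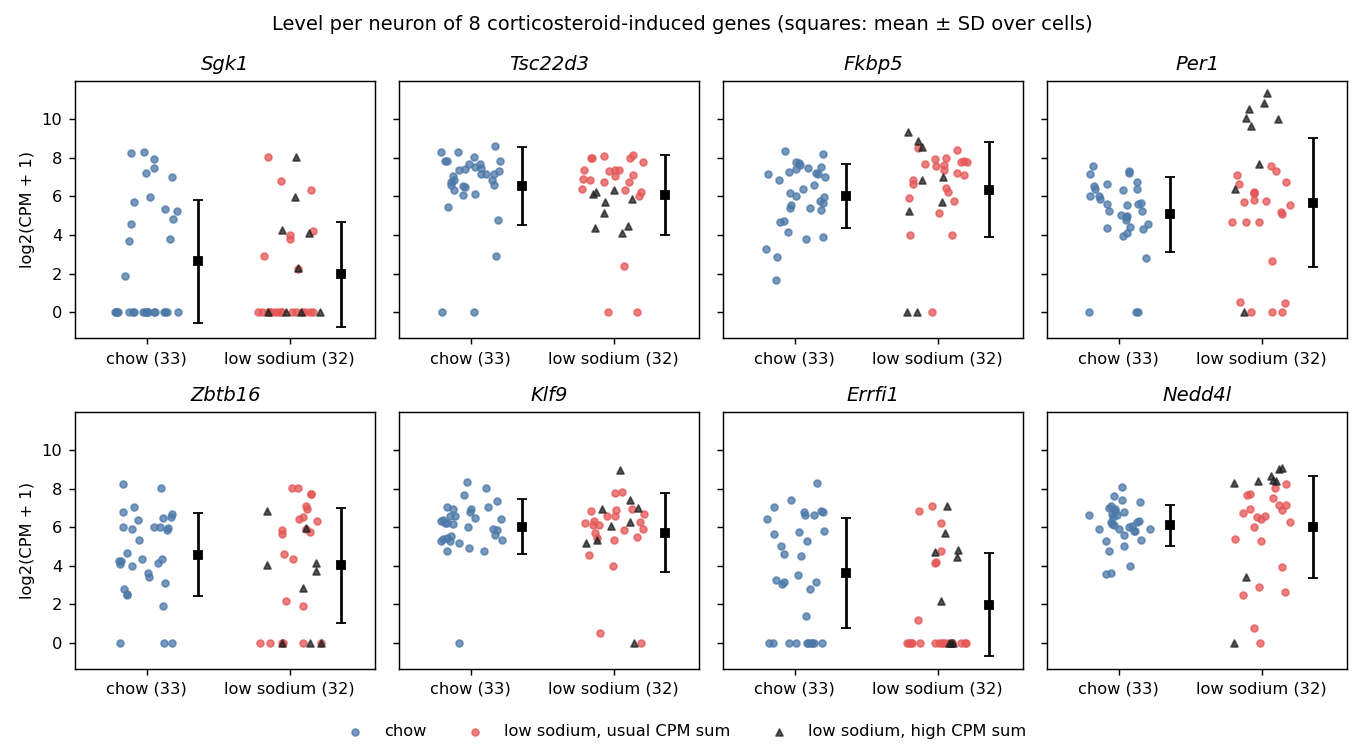
Level of each of the 8 measured genes in every neuron, in log2(CPM + 1), by diet (33 chow, 32 low sodium). Each point is 1 neuron, triangles are the 9 high-sum low-sodium neurons, and squares with bars are mean ± SD over cells. Sgk1 and Errfi1 have many neurons at 0, and 7 of the 9 triangles of Per1 lie above every chow neuron and every other low-sodium neuron.

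Sgk1 encodes a kinase that, in kidney epithelium, keeps sodium channels at the membrane, and is among the best known early aldosterone targets (chr10:21882184-21999903, plus strand). It was above 0 in 28 of 65 neurons (43.1%, exact 95% binomial interval 30.8 to 56.0). Chow neurons had a lowest level of 0, a median of 0 and a highest of 8.31 (above 0 in 15 of 33), and low-sodium neurons a lowest of 0, a median of 0 and a highest of 8.06 (13 of 32). The groups overlapped over nearly their whole range. Where it was found, the median level of chow neurons was 5.73 and that of low-sodium neurons 4.21, and the lowest level above 0 was 1.87. Means over all cells were 2.65 ± 3.20 and 1.97 ± 2.72, a difference (low sodium minus chow) of -0.68. Without the high-sum neurons the difference was -0.98, and over the 14 chow and 14 low-sodium neurons without non-neuronal markers it was -1.04.

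Nedd4l encodes the ubiquitin ligase NEDD4-2, which SGK1 phosphorylates in the kidney and which removes sodium channels from the membrane (chr18:64887705-65217828, plus strand). Chow neurons ran from 3.59 through a median of 6.19 to 8.08, and all 33 were above 0. Low-sodium neurons ran from 0 through a median of 6.83 to 9.10, with 30 of 32 above 0. The chow neurons thus sat in a narrow band, while the low-sodium neurons extended both below and above it. The means were nearly equal, 6.11 ± 1.06 and 6.04 ± 2.64 (difference -0.08). Within low sodium, the 9 high-sum neurons had a mean of 7.10 ± 3.18 and the other 23 a mean of 5.62 ± 2.35. After thinning every neuron to 50000 reads, 32 of 33 chow neurons (97.0%) and 24 of 32 low-sodium neurons (75%) had a read of Nedd4l. Of the 17659 annotated exonic bases of Nedd4l taken for this search, 277 overlap the antisense gene A330084C13Rik. Its level per kilobase was taken over a smaller set of 9645 exonic bases. Whether reads were counted by strand is not given in the sources used here.

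Tsc22d3 encodes GILZ, a leucine zipper protein that carries much of the anti-inflammatory action of glucocorticoids (chrX:140539528-140600659, minus strand). Chow neurons had a lowest level of 0, a median of 7.16 and a highest of 8.60, and low-sodium neurons a lowest of 0, a median of 6.56 and a highest of 8.15. It was above 0 in 31 of 33 and 30 of 32 neurons, and the groups overlapped almost fully. The means were 6.55 ± 2.01 and 6.08 ± 2.06 (difference -0.47). All 9 high-sum neurons had Tsc22d3, at 4.11 to 6.31 (mean 5.37 ± 0.87), whereas the median of the other 23 low-sodium neurons was 7.06. Leaving the high-sum neurons out brought the difference to -0.19, and over neurons without non-neuronal markers it was 0.16.

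Fkbp5 encodes FKBP51, a co-chaperone of the receptors that lowers their hormone binding and so closes a short feedback loop (chr17:28399094-28517527, minus strand). Chow neurons ran from 1.65 through a median of 6.21 to 8.37, and all 33 were above 0. Low-sodium neurons ran from 0 through a median of 7.07 to 9.34, and 29 of 32 were above 0. The low-sodium median was the higher, while the only neurons at 0 were also in that group. The means were 6.01 ± 1.66 and 6.36 ± 2.44 (difference 0.35), and 6.01 and 7.02 over neurons with a read. The difference was 0.60 without the high-sum neurons and 0.53 without neurons holding non-neuronal markers.

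Per1 encodes a repressor of the circadian clock that glucocorticoids also induce directly (chr11:69095217-69109960, plus strand). Chow neurons ran from 0 through a median of 5.56 to 7.57, and 30 of 33 were above 0. Low-sodium neurons ran from 0 through a median of 5.99 to 11.38, and 28 of 32 were above 0. The high end was held by the high-sum neurons: 8 of the 9 had Per1, at 6.38 to 11.38, and their mean was 8.51 ± 3.56, against 4.56 ± 2.57 in the other 23 and 5.07 ± 1.96 in chow. Scaling each neuron to the same total of 1000000 moved the 3 means to 7.90, 4.66 and 5.18, and thinning to 50000 reads moved them to 7.71, 3.96 and 4.36. The diet difference was 0.60 over all cells, -0.52 without the high-sum neurons and 0.81 without neurons holding non-neuronal markers, so its sign depended on the 9 neurons.

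Zbtb16 encodes PLZF, a zinc finger repressor that is strongly induced by glucocorticoids in several tissues (chr9:48654297-48836222, minus strand). Chow neurons ran from 0 through a median of 4.34 to 8.25, and low-sodium neurons from 0 through a median of 4.48 to 8.06. It was above 0 in 30 of 33 chow (90.9%, interval 75.7 to 98.1) and 23 of 32 low-sodium neurons (71.9%, interval 53.3 to 86.3), and the intervals overlapped. The mean was lower in low sodium (4.03 ± 2.98 against 4.59 ± 2.17, difference -0.56), while over neurons with a read it was 5.60 in low sodium and 5.04 in chow. The difference was -0.19 without the high-sum neurons and -1.01 over neurons without non-neuronal markers.

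Klf9 encodes a zinc finger factor that answers both glucocorticoids and thyroid hormone (chr19:23141226-23168134, plus strand). Chow neurons ran from 0 through a median of 6.21 to 8.35, with 32 of 33 above 0. Low-sodium neurons ran from 0 through a median of 6.19 to 8.96, with 30 of 32 above 0. The medians differed by 0.01 and the groups overlapped fully. Its means were 6.03 ± 1.41 and 5.73 ± 2.06 (difference -0.31), but over neurons without non-neuronal markers the difference was -1.16. That smaller set holds low-sodium neurons 35 and 51, both at 0, and neuron 15 at 0.50, while all its chow neurons were above 0. Neuron 35 had only 50540 reads. The weight of these few neurons in the difference was not tested.

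Errfi1 encodes MIG-6, which binds and restrains the EGF receptor family (chr4:150853919-150868892, plus strand). It had the largest diet difference of the 8 genes in mean log2(CPM + 1), whereas by the log2 ratio of mean CPM plus 1 Per1 (2.51) exceeded it (-1.17). Chow neurons ran from 0 through a median of 3.52 to 8.31, and low-sodium neurons from 0 through a median of 0 to 7.11. It was above 0 in 23 of 33 chow (69.7%, exact interval 51.3 to 84.4) and 13 of 32 low-sodium neurons (40.6%, interval 23.7 to 59.4), intervals that overlap. After thinning to 50000 reads the shares were 51.5% and 31.25%. Where it was found, its level was close in the 2 diets, 5.22 ± 1.82 in chow and 4.88 ± 1.79 in low sodium, so the difference lay in how many neurons had it. Means over all cells were 3.64 ± 2.86 and 1.98 ± 2.68, a difference of -1.65, which is lower than that of all but 0.632% of the 11875 genes. Without the high-sum neurons the difference was -2.14, with 7 of the other 23 low-sodium neurons above 0, and without neurons holding non-neuronal markers it was -1.47.

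**Figure D2:**
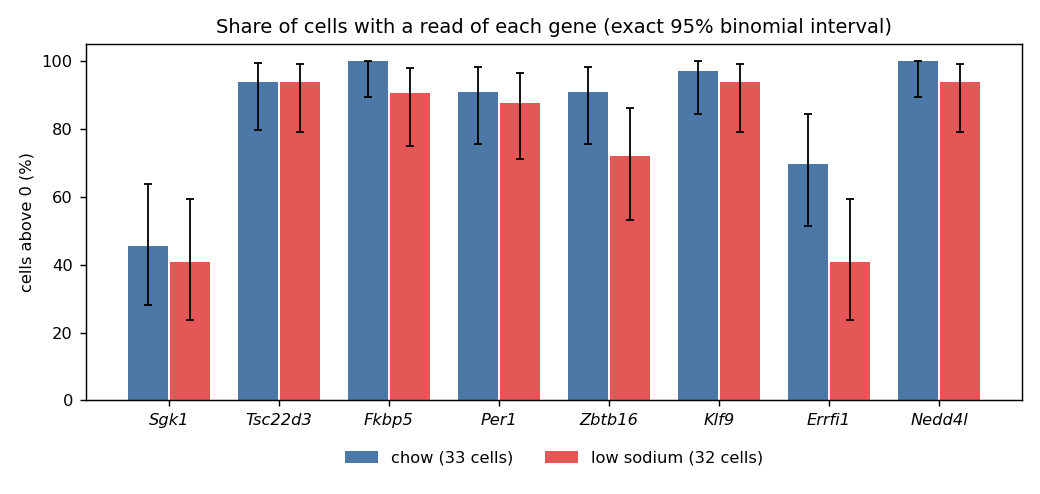
Share of neurons with at least 1 read of each gene, in percent, in chow (33 cells) and low sodium (32 cells), with exact 95% binomial intervals that cover counting over cells only. Errfi1 (69.7% and 40.6%) and Zbtb16 (90.9% and 71.9%) have the widest gaps, and Sgk1 is the lowest in chow.

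The direction of the 8 genes as a group depended on the summary used, and so did that of all genes. The mean log2(CPM + 1) was lower for 6 of 8, with a median difference of -0.39, where 58.5% of all 11875 genes were lower and their median difference was -0.12. By the log2 ratio of mean CPM plus 1 and by the median over cells, 3 of 8 were lower, with median differences of 0.12 and 0.07. By the same summaries 41.5% and 45.7% of all genes were lower, with medians of 0.14 and 0.00. Without the high-sum neurons 7 of 8 were lower, with a median of -0.44, against 57.5% of all genes and a median of -0.10. Only Errfi1 differed by -1 or lower, a size that 6.55% of all genes reached (6.27% without the high-sum neurons), and none by 1 or higher, which 3.61% reached. Over the 28 neurons without non-neuronal markers 4 of 8 differed by -1 or lower (Errfi1, Klf9, Sgk1 and Zbtb16), against 13.2% of all genes in those cells.

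**Figure D3:**
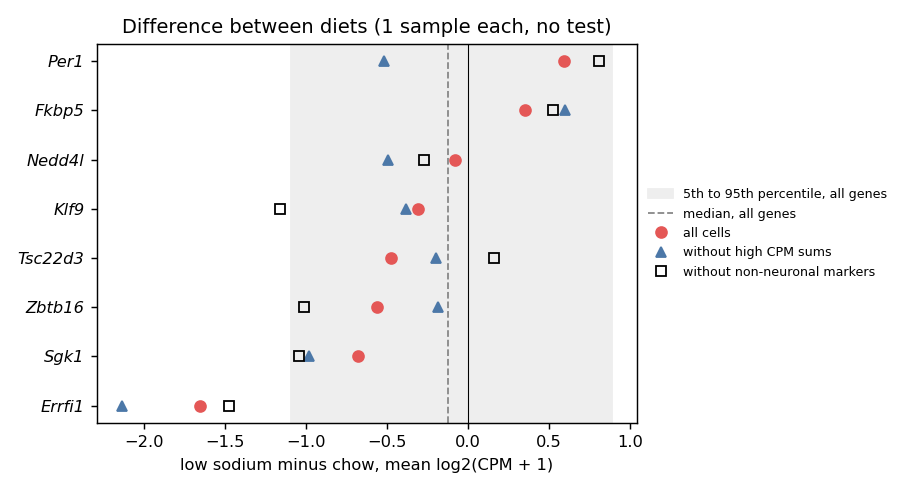
Low sodium minus chow in mean log2(CPM + 1) for the 8 genes, over all cells, without the 9 high-sum neurons, and over the 28 neurons without non-neuronal markers, with the 5th to 95th percentile and the median of all 11875 genes (over all cells) in the background. Errfi1 lies below that range over all cells. The range is given over all cells only, so it does not place Errfi1 among all genes in the smaller sets. Over the 28 neurons without non-neuronal markers 13.2% of all genes differed by -1 or lower, against 6.55% over all cells. Per1 changes side between 0.60 and -0.52 when the high-sum neurons are left out.

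The level of each gene was then set against the receptor genes in the same neuron. Nr3c2 (mineralocorticoid receptor) ran from 0 through a median of 5.69 to 7.89 in chow and from 0 through a median of 6.90 to 9.76 in low sodium. Its means were 5.48 ± 1.69 and 6.46 ± 2.23, and the 9 high-sum neurons had a mean of 8.27 ± 1.04 (7.55 when scaled to 1000000) against 5.76 ± 2.19 in the other 23. Nr3c1 (glucocorticoid receptor) had medians of 3.89 and 2.70 and means of 3.26 ± 2.48 and 2.88 ± 2.68, and was above 0 in 43 of 65 neurons.

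Over all 65 cells, Per1 had the highest Spearman value with Nr3c2 of the 8 genes, though not in every subset of cells. Its value was 0.45, and it was the only one of the 8 at 0.3 or higher, a value that 7.07% of all genes reached. The cells share their library depth and scale: the CPM sum of a neuron had a value of 0.46 with Nr3c2 and 0.50 with Per1. The value for Per1 was 0.36 after scaling to 1000000, 0.31 after adjustment for reads, genes and CPM sum, and 0.24 after thinning to 50000 reads. Chow neurons alone gave 0.29 and low-sodium neurons alone 0.48, with 0.32 in the 23 low-sodium neurons that were not high-sum. In those 23 neurons Tsc22d3 (0.52), Zbtb16 (0.37) and Fkbp5 (0.36) stood above Per1. Their percentiles among all genes there were 97.3, 86.8 and 85.6, against 80.6 for Per1. Values such as those of Zbtb16, Fkbp5 and Per1 were thus not rare in this subset, while few genes stood above Tsc22d3. Over neurons of both diets with both genes above 0, Fkbp5 stood at 0.35, Per1 at 0.34, Zbtb16 at 0.16 and Tsc22d3 at -0.13. For Per1, leaving out the 2 neurons farthest from the median of Nr3c2 gave 0.41. The 28 neurons without non-neuronal markers gave 0.60 for Per1 and -0.07 for Tsc22d3.

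**Figure D4:**
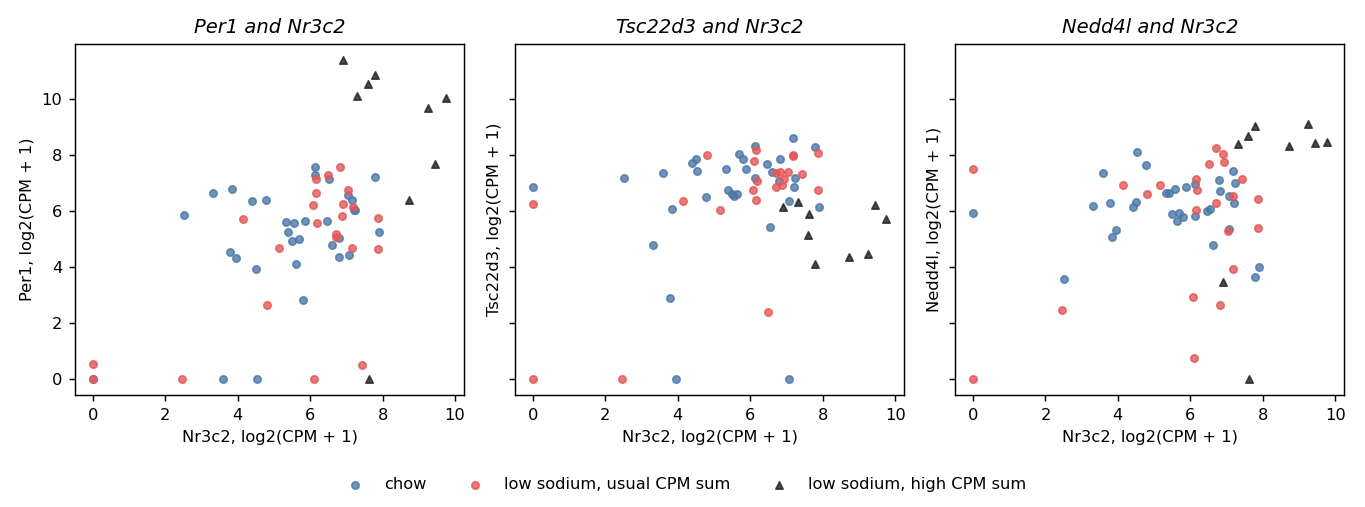
Levels of Per1, Tsc22d3 and Nedd4l against Nr3c2 in each of the 65 neurons, all in log2(CPM + 1), with high-sum low-sodium neurons as triangles. The triangles lie at the high end of Nr3c2 in each panel, mostly high for Per1 and Nedd4l and low for Tsc22d3.

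The other 7 genes had values with Nr3c2 between 0.00 and 0.25 over all cells. Nedd4l stood at 0.25, but at 0.00 in chow, 0.46 in low sodium and 0.05 once the high-sum neurons were left out. Tsc22d3 moved the other way, from 0.02 over all cells to 0.32 without the high-sum neurons, in which Nr3c2 was high and Tsc22d3 low. Without those 9 neurons, 3 of the 8 genes reached 0.3 (Per1 at 0.33, Tsc22d3 at 0.32 and Zbtb16 at 0.31), against 5.72% of all genes. In low sodium alone it was also 3 of 8, but Per1, Nedd4l and Errfi1 (0.41), against 15.4% of all genes. Sgk1, the best known aldosterone target of the list, had a value of 0.08 over all cells and 0.00 without the high-sum neurons, and Errfi1 stood at 0.00. Klf9 stood at 0.01 over all cells, at -0.27 in chow and at 0.25 in low sodium.

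With Nr3c1 none of the 8 genes reached 0.3, a value that 6.96% of all genes reached. Their values ran from -0.15 (Fkbp5) to 0.22 (Nedd4l), where the median of all genes was 0.10. Fkbp5 stood at percentile 2.71 of all genes, but at 31.2 after thinning to 50000 reads, where its value was 0.00. In low sodium alone Nedd4l reached 0.33, where 12.5% of all genes were at 0.3 or higher. In the 23 low-sodium neurons that were not high-sum it stood at 0.34, percentile 86.2 of all genes. Over neurons with both genes above 0 the values with Nr3c1 ran from -0.32 (Per1) to 0.21 (Nedd4l). Nr3c1 itself had a value of 0.43 with the number of genes found in a neuron, 0.09 with reads and 0.02 with the CPM sum.

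**Figure D5:**
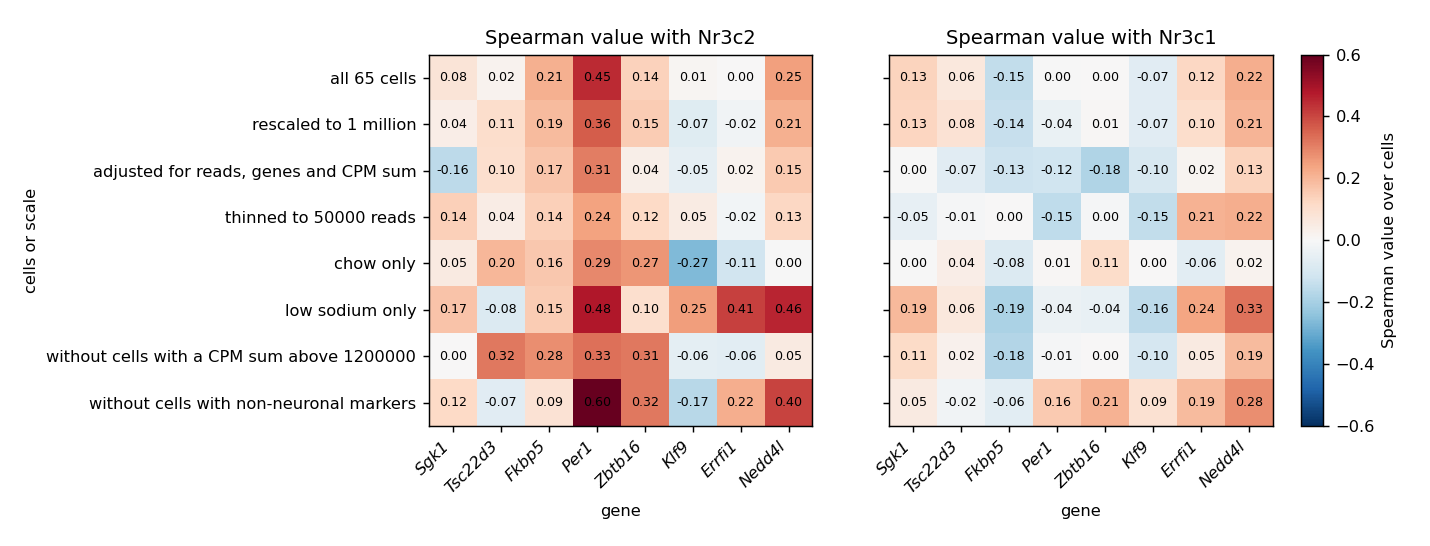
Spearman values between each of the 8 genes and Nr3c2 (left) or Nr3c1 (right) over cells, for 8 choices of cells or scale. The Per1 column with Nr3c2 stays between 0.24 and 0.60, while the Nr3c1 panel exceeds 0.3 once, for Nedd4l in low sodium.

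The 8 genes followed one another only weakly from cell to cell. Over the 65 cells their 28 pairs had Spearman values from -0.20 (Sgk1 with Fkbp5) to 0.29 (Per1 with Nedd4l), with a median of 0.08 and none at 0.3 or higher. Over all pairs of the 10860 genes above 0 in at least 16 cells, the median was 0.05 and 3.79% were at 0.3 or higher. The value of Per1 with Nedd4l depended on the high-sum neurons: it was 0.56 in low sodium, -0.09 in chow, 0.04 once those 9 neurons were left out and 0.10 after thinning. Without them the 28 pairs ran from -0.31 (Sgk1 with Fkbp5) to 0.27 (Per1 with Zbtb16). In low sodium alone Errfi1 with Nedd4l stood at 0.49, Sgk1 with Tsc22d3 at -0.42 and Tsc22d3 with Nedd4l at -0.41. Over the 56 neurons of both diets that were not high-sum, these pairs stood at 0.21, -0.17 and -0.06. In chow the highest pair was Fkbp5 with Nedd4l at 0.38. The share of all pairs at such values was not taken within a diet. Both Sgk1 and Zbtb16 went with the number of genes found in a neuron (0.38 and 0.39).

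Other genes followed single members more closely, among 8088 genes above 0 in at least 33 cells. Closest to Per1 was Ep300, a histone acetyltransferase and coactivator, at 0.67 (0.63 without the high-sum neurons), followed by Slc7a6, an amino acid transporter, at 0.58 (0.37). Cacna1b, the pore of N-type calcium channels, stood closest to Nedd4l at 0.63 (0.44), followed by Rmnd5a at 0.59 (0.47). For Zbtb16 they were Scn1a, a sodium channel, and Synm, an intermediate filament protein, both at 0.58. For Tsc22d3 the genes were Opa3 at 0.56 and Ica1 at 0.50. Dgka and Crkl stood closest to Sgk1 (both 0.49), Mpp7 (0.49) and Epb41 (0.48) to Fkbp5, Fem1a (0.48) and Naa60 (0.44) to Klf9, and Agbl4 (0.47) and Ccdc39 (0.46) to Errfi1. These are the highest of many values, so they describe these 65 cells only.

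The wider pathway was read from lists of related genes. As set out above, 58.5% of all genes were lower in low sodium, 57.5% without the high-sum neurons, and 6.55% differed by -1 or lower. Among 14 measured of 20 other corticosteroid-induced genes, 6 had higher and 8 lower means in low sodium, with a median difference of -0.21 (3 higher and 11 lower without the high-sum neurons). None differed by 1 or higher and 3 by -1 or lower: Mt1 (5.02 ± 3.05 in chow, 2.78 ± 2.87 in low sodium) and Mt2 (2.51 ± 2.83 and 1.28 ± 2.14), which encode metal-binding metallothioneins, and Ndrg2 (7.76 ± 1.82 and 6.47 ± 2.22), which is also abundant in astrocytes. Astrocyte markers were held by 16 chow and 13 low-sodium neurons, and the part of astrocyte transcripts in the values of all 3 genes was not tested. Of 14 measured clock genes, 5 were higher and 9 lower (median -0.31), or 3 and 11 without the high-sum neurons, and the largest difference was that of Bhlhe40, a clock repressor, at -1.09.

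Of 16 chaperones and coregulators of the receptors 6 were higher and 10 lower, and the coactivator Ep300 (4.87 ± 2.12 and 6.16 ± 2.33) was higher in low sodium by 1.29. Without the high-sum neurons this difference was 0.21. On the SGK1 and NEDD4-2 route 11 of 15 measured genes were higher and 4 lower, with a median of 0.26. Leaving out the high-sum neurons gave 7 higher and 8 lower and a median of -0.03. For the mTORC1 route that Ddit4 restrains, 6 of 11 were higher and 5 lower (5 and 6 without the high-sum neurons). Rptor, the scaffold of mTORC1, stood at 5.17 ± 2.5 in chow and 7.39 ± 2.60 in low sodium (difference 2.22, and 1.32 without the high-sum neurons), and Eif4ebp2, a translation repressor, at 2.35 ± 2.5 and 1.20 ± 2.17.

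Of the sodium transport genes that aldosterone regulates in kidney epithelium, 6 of 14 were measured, and Scnn1a, Scnn1b and Scnn1g, the channel subunits that SGK1 and NEDD4-2 act on in kidney, have no line in the table. Among the 6, 3 were higher and 3 lower, and the largest difference was that of the kinase Stk39 at -0.81 (-1.03 without the high-sum neurons). Of 22 measured relatives of the 8 genes 18 were lower, and 13 without the high-sum neurons, which is near the share of all genes. Tsc22d2, a relative of Tsc22d3, was higher by 1.63 (3.53 ± 2.49 and 5.16 ± 2.55), and by 1.05 without the high-sum neurons. Of 6 measured EGF receptor and ligand genes, the family that Errfi1 restrains, 4 were higher and 2 lower, and Erbb4 differed by 1.09 (1.22 ± 1.76 and 2.31 ± 2.76). Immediate early genes, which respond within minutes to activity, were higher in 9 of 14 (7 of 14 without the high-sum neurons). Of 8 measured hypoxia and stress genes that share inducers with Ddit4, 7 were lower, led by Ddit3, a factor of the endoplasmic reticulum stress response, at 5.24 ± 1.93 in chow and 2.90 ± 2.80 in low sodium. Of 7 measured receptors and steroid enzymes, 2 were higher and 5 lower (1 and 6 without the high-sum neurons).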

How the data were processed

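Single neurons were made into polyA libraries with Smart-Seq2 and Nextera XT, per the labels' protocols, in which the digested tissue is Arc-ME, although all samples have the NTS as their tissue label (followed here). Per the submitters' processing notes, the genome is mm10 (GRCm38) and the tools were featureCounts 1.4.6, HISAT2 2.0.5, SAMtools 0.1.19, Picard 2.5.0 and bcl2fastq. The sources used here do not give their settings, the strand rule, the annotation or the total used for scaling. The authors deposited log2(CPM + 1) per gene and cell for 12015 lines, each above 0 in at least 5 cells. From these, 19 lines with numbers for names and 121 lines sharing 60 names were left out of all but totals, which left 11875 genes.

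CPM were computed by undoing the log2. In every cell 100% of CPM up to 20 steps lay within 0.1 steps of a whole multiple of the smallest step, which was read as 1 sequencing read. No source names molecular identifiers, so intervals (exact Clopper-Pearson, 95%) cover counting error over cells only. The high-sum neurons are those with a CPM sum above 1200000, and 17 cells exceeded 1000000.

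Means are given with the SD between cells. No test was run, and relations are Spearman values over cells with no p. The limits were a difference of 1 and a Spearman value of 0.3. A neuron held markers of a type when at least 3 exceeded 10 CPM. The genes and lists were chosen with earlier results of these data known. Named genes are the 9 listed genes, Nr3c2, Nr3c1 and Hsd11b2, the 3 largest differences per list among genes above 0 in at least 16 cells (not all of them printed), and the 2 genes most like each member among those above 0 in at least 33 cells. Missing list members and single values given beyond these were chosen after their values were seen. The calculations were tested on simulated data and used Python 3.11.15 with pandas 2.3.3, numpy 2.4.6 and scipy 1.17.1, and figures matplotlib 3.10.9. Alternatives were pseudocounts of 10 and 0.1 CPM, other scalings, thinning to 50000 reads, other summaries and subsets of cells.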

Additional observations from a re-analysis of the deposited data

How the results depend on the processing

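With 1 sample a diet, the values show the spread between cells and not that between animals. The scale of the 9 high-sum neurons is not known, and 1 read was worth up to 16.1 CPM, so genes at 0 in a shallow neuron may be present. No paired analysis was possible because neuron numbers do not link the diets and no test was run. The median difference of the 8 genes ran from -0.64 to 0.12 over the alternatives, above 0 by the log2 ratio of mean CPM plus 1 (0.12) and by the median over cells (0.07), and between -0.48 and -0.26 when single cells were left out, against -0.39. The count with a lower mean, 6 of 8, became 3 by the log2 ratio of mean CPM plus 1 and 3 by the median over cells. These scales also moved the median of all genes from -0.12 to 0.14 and 0.00, and their share of lower genes from 58.5% to 41.5% and 45.7%. The median of all genes was -0.26 after scaling to 1000000 and -0.27 after thinning. The count differing by -1 or lower, 1 of 8, became 0 with a pseudocount of 10 CPM, 2 with 0.1 CPM, 2 without cells under 100000 reads and 4 without cells holding non-neuronal markers. All genes reached that size in 6.55% of cases over all cells and in 13.2% without cells holding non-neuronal markers. Their share was not taken with other pseudocounts or without cells under 100000 reads, so those counts cannot be set against all genes. The median of all genes also moved, to -0.04 with 10 CPM and -0.21 with 0.1 CPM. The count with a Spearman value of at least 0.3 with Nr3c2, 1 of 8, became 0 after thinning, 0 in chow only, 3 in low sodium only, 3 without the high-sum neurons, 3 without cells holding non-neuronal markers and 2 over cells with both genes above 0. The share of all genes at that value was taken only over all cells, in low sodium only and without the high-sum neurons. Without cells holding non-neuronal markers, Zbtb16 at 0.32 stood at percentile 80.9 of all genes, so such values were common there. The count with Nr3c1, 0 of 8, became 1 in low sodium only. The relation in low-sodium cells without high sums was added after the data were seen. The cause of these shifts was not tested.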
